A study of Rattus norvegicus with 14 samples.

Results

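The autophagy, lysosome and cathepsin genes are 34 genes of the route by which muscle cells enclose their own parts in membranes and digest them in lysosomes. They were chosen by name: 33 of the 34 names stood among the 26115 gene names on the array, and the array files carry the remaining one, Ctsl, under its older name Ctsl1. All 33 passed the filter on dim probes, and each was well above background on all 14 arrays. No member was called between diets: 0 of 33 passed limma's test with adjustment over all 26387 probes in any of the 3 diet comparisons. The largest fitted difference of any member was 0.34 on the log2 scale, where 1 is a doubling.

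RNA came from plantaris, a fast-twitch muscle of the calf, of Wistar rats, with 1 Agilent one-colour array per sample and samples named as biological replicates. The control diet (n = 4) supplied vitamin D at 1000 IU per kg. The depletion group (n = 6) ate a vitamin D depletion diet, and the repletion group (n = 4) was depleted and then given vitamin D again, with amounts and durations not given in the labels used here. The labels used here give neither age nor sex, and no genetic change or other agent is named for any group. The title of depletion replicate 1 places it in the depletion group, while its diet field names depletion and repletion. It was grouped by title. Many of the small differences below rest on it: without it 9 of 33 members turned sign in depletion against control and 19 more moved by over 1.5 times.

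Arrays lay on 5 slides, each scanned once. Of the control arrays, replicates 1 and 2 were on slide 1, replicate 3 on slide 2 and replicate 4 on slide 4. Repletion replicates 1, 2, 3 and 4 were on slides 1, 2, 3 and 5 in that order. Slide 3 carried depletion replicates 3 and 4, while replicates 1, 2, 5 and 6 of that diet were on slides 1, 2, 4 and 5. All 8 muscle fibre markers were well above background on all 14 arrays, and the share of spots well above background ran from 82.8% to 88.1% per array. A level is the log2 signal of a gene's brightest probe minus the log2 of the array's 75th percentile, so 0 is that percentile. Levels of single genes are compared between arrays for 1 probe and not between genes. The exceptions are signals summed over the cathepsins or over markers, in which bright probes weigh most. A difference is fitted with slide as a block, and is given as log2 difference ± SE. A 13-array difference or count comes from the same fit without depletion replicate 1, and is given beside a printed difference that turned sign or moved by over 1.5 times. The number of arrays limits the precision.

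Autophagy begins when the kinase Ulk1 and the lipid kinase complex of Becn1 and Pik3c3 start a membrane, which a conjugation machinery of Atg proteins then coats with proteins of the LC3 and GABARAP family. Cargo receptors tie the material to that coat, and the closed vesicle fuses with a lysosome, where cathepsins cut proteins and glycosidases cut glycans and glycogen. Tfeb is a transcription factor that switches on genes of lysosomes and autophagy. In skeletal muscle the route clears damaged mitochondria and supplies amino acids in fasting, and both its loss and its excess reduce muscle mass.

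Tfeb binds the E-box CACGTG, most often in the extended form GTCACGTG, whose reverse complement is CACGTGAC. The promoter table of RefSeq on GRCr8 held 29 of the 34 members, with 250 bases before each annotated start. Within these windows 6 members (20.7%) held CACGTG, against 5.79% of all 27457 promoters, and 4 members (13.8%) held an extended form, against 1.78%. Every extended form contains the E-box, and the E-box reads the same on both strands. The stretches below are shown because they hold all 4 members with the extended form, the sites a change of Tfeb would be read against. They run 5′ to 3′ along the gene with the E-box in capitals. That of Lamp1 is chr16:83075088-83075254 on the minus strand of GRCr8, from 191 to 25 bases before the start. That of Ctsd is chr1:206968822-206968851 on the minus strand, the last 30 bases before the start. Gaa is shown at chr10:105028280-105028301 on the plus strand and Atg3 at chr11:69159283-69159327 on the minus strand.
Lamp1: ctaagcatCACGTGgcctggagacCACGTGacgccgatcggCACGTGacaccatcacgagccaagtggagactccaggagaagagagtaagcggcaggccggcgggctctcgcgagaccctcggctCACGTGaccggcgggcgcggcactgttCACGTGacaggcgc
Ctsd: tccgcccctcgcccgcgtctCACGTGaccc
Gaa: ccacaaacCACGTGacccacgc
Atg3: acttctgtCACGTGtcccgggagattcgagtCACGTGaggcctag

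Lamp1 held 5 E-boxes, of which 4 were extended, beginning 167, 150, 65 and 38 bases before the start. Ctsd held 2 extended E-boxes, beginning 157 and 10 bases before it, and Atg3 held 2, at 39 and 16 bases. Gaa held 1, at 67 bases. Bnip3 and Atg5 held 1 E-box each without the extension, at 99 and 19 bases. These are matches of letters, and no binding was measured.

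**Figure D1:**
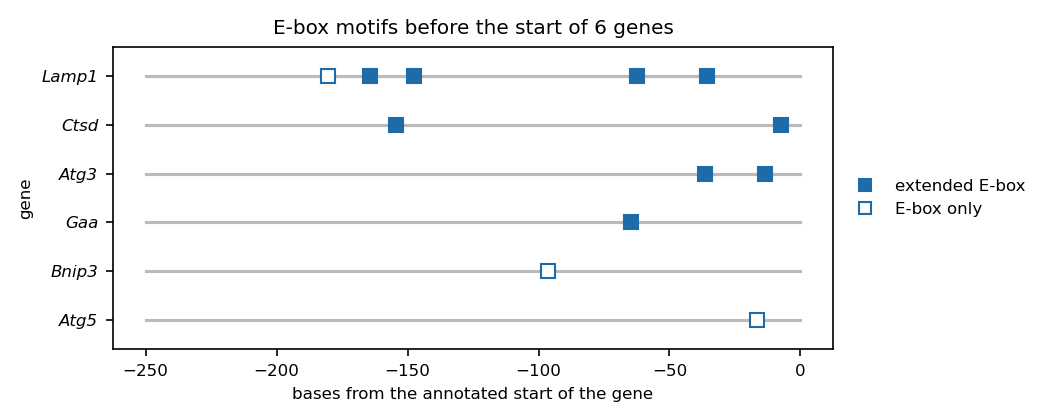
Position of E-boxes in the 250 bases before the annotated start of the 6 members that hold one; the x axis gives bases from the start, filled squares mark the extended form and open squares the E-box alone. Lamp1 holds 5, more than the other 5 genes shown.

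A second set of sequences shows what 2 of the LC3 and GABARAP family probes read. The protease Atg4b cuts the end off these proteins behind a glycine, and the exposed glycine is what gets joined to the membrane lipid. The probe used here for Map1lc3b lies at chr19:51853509-51853568 in rn4, the build named in the array files. One of 2 probes for Gabarapl1 lies at chr4:166810026-166810085 in rn4. Both end on the stop codon, so they read the messenger RNA across the cut site and not the lipid-bound form of the protein. Capitals mark the last glycine codon before the stop and the stop itself, found in the frame of that stop codon.
Map1lc3b: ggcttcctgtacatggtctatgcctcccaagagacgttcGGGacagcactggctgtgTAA
Gabarapl1: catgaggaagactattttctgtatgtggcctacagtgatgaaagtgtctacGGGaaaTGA
The part behind the glycine was 5 codons long in Map1lc3b and 1 codon in Gabarapl1.

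The first comparison, depletion against control, concerned the response of these transcripts to a diet without enough vitamin D. Of the 33 members 14 were higher and 19 lower after depletion, with a median difference of -0.03, beside -0.02 over all probes tested. Of all probes 45.7% were higher. The 13-array counts were 11 higher and 22 lower, with a median of -0.05, beside -0.0085 over all probes. None passed limma's test (lowest adjusted p 0.836 among members and among all probes), where 0% of all 26387 probes passed. At an unadjusted p under 0.05 the count was 0 of 33, beside 4.81% of all probes. In 0 of 33 did the levels of the groups not overlap, beside 0.841% of all probes. The 95% interval of the difference lay within a 2-fold change either way for 32 of 33 members, all but Ctss, and within 1.5-fold for 27.

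Repletion against depletion asked what returning vitamin D did. Here 20 members were higher and 13 lower in repletion, with a median of 0.04, beside 0.04 over all probes, 58.5% of which were higher. The 13-array counts were 24 and 9, with a median of 0.07, beside 0.03 over all probes. In that fit 8 members turned sign while 18 more moved by over 1.5 times. Limma's adjusted p was 0.935 at the lowest, 0% of all probes passed, and 0 members did. Tfeb was the 1 member at an unadjusted p under 0.05, beside 3.44% of all probes. The groups did not overlap for 0 of 33 members, beside 0.299% of all probes. For 33 of 33 the interval lay within 2-fold either way, and for 30 within 1.5-fold.

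Repletion against control asked whether levels after repletion still differed from those of rats never depleted. Of the 33 members 23 were higher and 10 lower, with a median of 0.03 beside 0.01 over all probes, 53.7% of which were higher. In the 13-array fit 21 were higher and 12 lower, and there 6 members turned sign and 13 more moved by over 1.5 times. None passed, limma's adjusted p being 1.0 throughout, as for 0% of all probes. At an unadjusted p under 0.05 there were 0 members beside 1.98% of all probes, and 0 whose groups did not overlap beside 1.13%. The interval lay within 2-fold for 32 members, all but Ctss, and within 1.5-fold for 25. Because each group enters a pair of comparisons, the 3 sets of differences are not independent. A joint F test over the 3 diets called 0 of 33 members (lowest limma adjusted p 0.992), beside 0% of all probes. At an unadjusted p under 0.05 in that test stood 1 of 33 members, Tfeb, beside 812 of all 26387 probes.

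**Figure D2:**
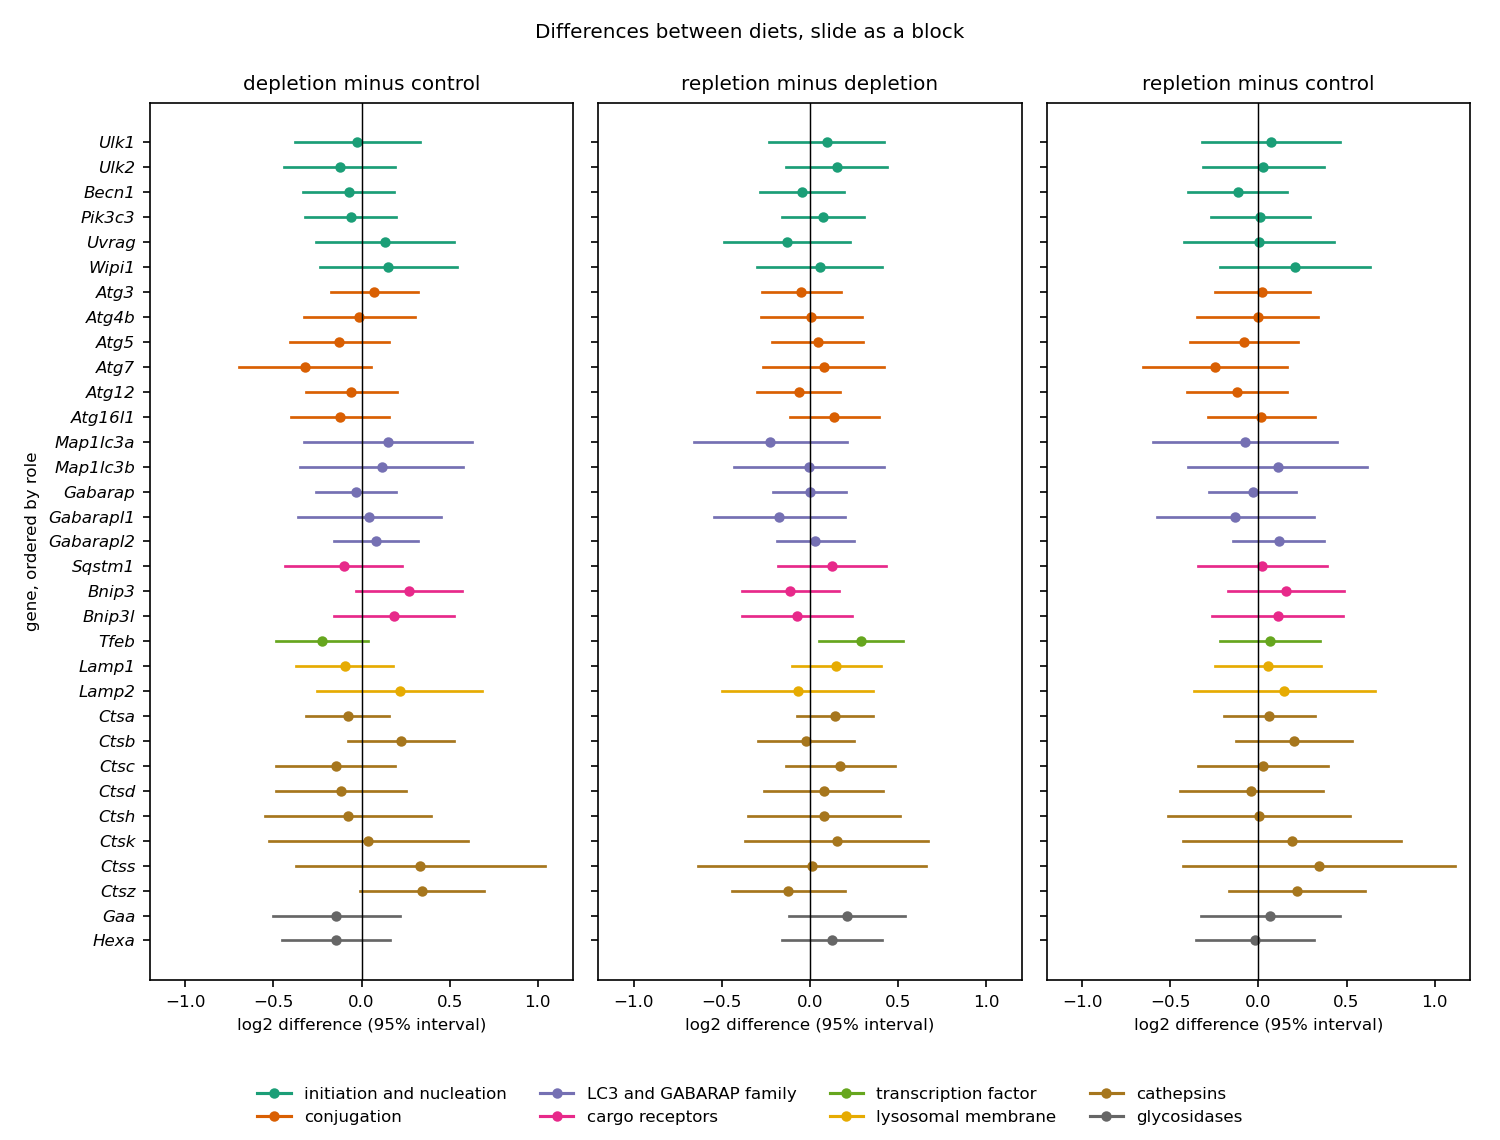
Fitted log2 difference with its 95% interval (x axis) for each of 33 members (y axis, coloured by role) in the 3 diet comparisons, slide as a block. All intervals cross 0 except that of Tfeb in repletion minus depletion, which runs from 0.05 to 0.53 before any adjustment.

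The genes that start autophagy were 6 members: Ulk1 and Ulk2, Becn1, Pik3c3, Uvrag, which joins the Becn1 complex, and Wipi1, which reads its lipid. After depletion 2 were higher and 4 lower, with a median of -0.04. In repletion against depletion 4 were higher and 2 lower, with a median of 0.06, and against control 5 were higher. The 13-array counts of higher members were 1, 5 and 3 in the same order, with medians of -0.09, 0.10 and 0.01. None of these was a call.

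Ulk1, the kinase that starts the process, was measured at chr12:46022440-46022499 (rn4). Its level was 2.78, 3.08, 3.16 and 3.09 on control arrays 1 to 4, from 2.83 to 3.31 with a median of 3.02 on depletion arrays, and 3.36, 3.04, 2.92 and 3.37 on repletion arrays 1 to 4. The 3 ranges overlapped, and the highest levels were in repletion. Ulk1 differed by -0.02 ± 0.16 after depletion and by 0.09 ± 0.15 in repletion against depletion.

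Becn1, the core of the lipid kinase complex, was measured by a probe at chr10:90318654-90319457 (rn4), an interval longer than the probe itself. Control arrays stood at 0.18, 0.32, 0.42 and 0.24, and depletion arrays ran from -0.01 to 0.40 with a median of 0.17. Repletion arrays stood at 0.07, 0.20, 0.19 and 0.12, so that the groups overlapped and all 4 repletion arrays lay below the control mean of 0.29. The difference was -0.07 ± 0.11 for depletion (-0.18 on 13 arrays) and -0.12 ± 0.13 for repletion, both against control.

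Wipi1 had one of the 4 smallest unadjusted p-values in repletion against control, 0.304 in limma's moderated t test. It was measured at chr10:98749014-98749073 (rn4). Its control levels were 0.18, 0.35, 0.39 and -0.04, depletion ran from -0.30 to 0.84 with a median of 0.21, and repletion gave 0.26, 0.51, 0.51 and -0.20. The lowest control, depletion and repletion arrays were those of slides 4 and 5, and the highest of all was depletion replicate 1. Repletion differed from control by 0.21 ± 0.19, and by 0.13 on 13 arrays. Depletion differed from control by 0.15 ± 0.17, and by -0.06 on 13 arrays. The other members of the group had differences from -0.12 (Ulk2) to 0.13 (Uvrag) after depletion, the latter being 0.03 on 13 arrays.

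The conjugation machinery was 6 members. Atg7 activates the proteins to be joined, Atg3 passes LC3 on to its lipid, Atg12 and Atg5 form a conjugate that Atg16l1 brings to the membrane, and Atg4b cuts LC3 open and later releases it. After depletion 5 of the 6 were lower and Atg3 was higher, with a median of -0.09. In repletion against depletion 4 were higher and 2 lower, with a median of 0.03, and none was called. On 13 arrays 4 were lower after depletion, with a median of -0.02, and 3 were higher in repletion against depletion, with a median of -0.0001.

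Atg7 had the lowest difference of any member after depletion and was the member that slides separated most. Its probe maps to chr4:150854179-150866191 (rn4), an interval that spans more than the probe's own length. Levels were -2.99, -2.44, -1.84 and -2.40 in control, from -3.41 to -2.24 with a median of -2.66 after depletion, and -2.99, -2.11, -2.18 and -3.38 after repletion. The groups overlapped almost completely. By slide, however, the means were -2.78, -2.07, -2.35, -2.67 and -3.40 on slides 1 to 5.

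Depletion differed from control for Atg7 by -0.32 ± 0.17 (limma, unadjusted p = 0.0840, adjusted p = 0.836). The differences within slides 1, 2 and 4 were 0.03, -0.44 and -0.54. Without depletion replicate 1 the difference was -0.47 and Atg7 was the 1 member at an unadjusted p under 0.05, beside 3.02% of all probes. Repletion differed from control by -0.24 ± 0.18, and by -0.28 within slide 1 and -0.28 within slide 2. The F test for slide, with diet in the model, called Atg7 as the 1 member of 33 (limma adjusted p = 0.00632), beside 28% of all probes. Ctsz, Ctsa, Tfeb and Wipi1 were at an unadjusted p under 0.05 in that test and did not pass. With Atg7 these made 5 of 33 members at that threshold, beside 9194 of all 26387 probes.

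Atg5 and Atg16l1 each had a second probe. For Atg5 depletion gave -0.13 on the brightest probe and -0.01 on the other, and for Atg16l1 -0.12 and -0.24. The brightest probes gave -0.01 for Atg5 and 0.04 for Atg16l1 on 13 arrays. Atg4b differed by -0.01 ± 0.14 after depletion (0.15 on 13 arrays) and Atg12 by -0.06 ± 0.11 (-0.13 on 13 arrays). Atg3, with its pair of extended E-boxes, differed by 0.07 ± 0.11 after depletion and by -0.05 ± 0.10 in repletion against depletion. Both turned sign on 13 arrays, to -0.04 and 0.02.

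The LC3 and GABARAP family, the coat of the growing vesicle, was 5 members. After depletion 4 were higher and 1 lower, with a median of 0.08. On 13 arrays 1 was higher and 4 lower, with a median of -0.09. Depletion replicate 1 was the highest of all 14 arrays for Map1lc3a, Map1lc3b and Gabarapl2. In repletion against depletion 1 was higher and 4 lower, with a median of -0.01, and on 13 arrays 3 were higher, with a median of 0.05.

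Map1lc3b, read at its cut site by the probe printed above, gave 3.77, 4.13, 4.24 and 4.25 in control. The depletion arrays ran from 3.72 to 4.74 with a median of 4.18, and repletion gave 4.20, 4.15, 4.21 and 4.14. The groups overlapped, and the repletion arrays lay closest together (SD 0.04, n = 4) while depletion was widest (SD 0.36, n = 6). The difference was 0.11 ± 0.21 after depletion, and -0.15 on 13 arrays. For repletion against depletion it was -0.01 ± 0.19, and 0.16 on 13 arrays. A dimmer second probe gave -0.07 after depletion. The array files list predicted transcripts beside Map1lc3b for the brightest probe, so it may read more than 1 gene.

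Gabarapl1, a relative of LC3, was measured by its brightest probe at chr4:166811168-166811227 (rn4). Control levels were 5.20, 5.14, 5.68 and 5.18, depletion ran from 5.04 to 5.62 with a median of 5.43, and repletion gave 5.30, 5.05, 5.16 and 5.23. Control replicate 3 stood apart from the other control arrays, and all 4 repletion arrays lay below the means of the other two groups. Depletion differed from control by 0.04 ± 0.18, by -0.09 on 13 arrays and by 0.29 without control replicate 3. Repletion differed from depletion by -0.17 ± 0.17, by -0.09 on 13 arrays, and the second probe, printed above, gave -0.15. Gabarapl2 had 3 probes, which gave 0.08, -0.16 and -0.10 after depletion, so its direction was not settled, and the first of these was 0.01 on 13 arrays.

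Cargo receptors were 3 members. Sqstm1 carries ubiquitin-tagged protein to the vesicle, and Bnip3 and Bnip3l mark mitochondria for removal. After depletion both mitochondrial receptors were higher than in control and Sqstm1 lower, and none was called.

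Bnip3 was measured at chr1:198683030-198683089 (rn4) and had one of the 4 smallest p-values after depletion. Its control levels were 5.45, 5.46, 5.43 and 5.39, the tightest group of any member given here array by array (SD 0.03, n = 4). Depletion ran from 5.31 to 6.09 with a median of 5.58, and repletion gave 5.63, 5.60, 5.38 and 5.62. Of the depletion arrays 5 of 6 lay above the control mean, and depletion replicate 1 was the highest. The difference was 0.27 ± 0.13 after depletion (limma, unadjusted p = 0.0737, adjusted p = 0.836), and 0.12 on 13 arrays. Within slides 1, 2 and 4 it was 0.64, 0.21 and -0.08. Repletion differed from control by 0.16 ± 0.15, and by 0.10 on 13 arrays.

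Sqstm1 was measured at chr10:35751726-35751785 (rn4). Levels were 4.54, 4.73, 4.96 and 4.82 in control, from 4.42 to 4.96 with a median of 4.75 after depletion, and 4.82, 4.88, 4.77 and 5.00 after repletion. All 4 repletion arrays lay above the depletion mean of 4.73, with overlap. The difference was -0.10 ± 0.15 after depletion (-0.23 on 13 arrays), and a second probe of another transcript gave 0.21, so the probes disagreed in sign. Bnip3l differed by 0.18 ± 0.15 after depletion and by -0.08 ± 0.14 in repletion against depletion.

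Tfeb, the transcription factor of the group, was lowest after depletion and higher after repletion, without passing the test. Its probe lies at chr9:8665358-8665417 (rn4). Control arrays stood at -0.95, -0.89, -1.05 and -0.44, depletion arrays ran from -1.30 to -0.76 with a median of -1.01, and repletion arrays stood at -0.75, -0.95, -0.97 and -0.55. The groups overlapped. All 4 repletion arrays lay above the depletion mean of -1.04, and 1 of 6 depletion arrays lay above the control mean of -0.83.

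For Tfeb repletion differed from depletion by 0.29 ± 0.11 (limma, unadjusted p = 0.0222, adjusted p = 0.935). The difference was positive within each of the 4 slides that held both diets, at 0.56, 0.13, 0.10 and 0.39 on slides 1, 2, 3 and 5. It was 0.24 without depletion replicate 1, the array with the lowest Tfeb level of all 14. The unadjusted p of limma for Tfeb was then not under 0.05, nor was it with that array counted as repletion. Depletion differed from control by -0.22 ± 0.12 (limma, unadjusted p = 0.0835, adjusted p = 0.836), and by -0.38, -0.03 and -0.32 within slides 1, 2 and 4. On 13 arrays this difference was -0.14. Repletion differed from control by 0.07 ± 0.13. Tfeb levels also varied by slide, with means of -0.60 on slide 4 and -0.75 on slide 5, and from -1.04 to -0.97 on the other 3.

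The 4 members with an extended E-box, set beside Tfeb, were mixed. Repletion differed from depletion by 0.15 ± 0.11 for Lamp1, 0.08 ± 0.15 for Ctsd, 0.21 ± 0.15 for Gaa and -0.05 ± 0.10 for Atg3. Against control, depletion gave -0.10, -0.12, -0.14 and 0.07 in the same order. Lamp1, Ctsd and Gaa thus had the sign of Tfeb in both comparisons and Atg3 the opposite one. The 13-array differences were 0.20, 0.13, 0.28 and 0.02 for repletion against depletion and -0.17, -0.21, -0.25 and -0.04 for depletion against control, so that Atg3 then had the sign of Tfeb too. The 95% interval of each of these differences on all arrays included 0. In the 13-array fit 24 of all 33 members were higher in repletion against depletion and 22 were lower after depletion. Most members thus shared each of these signs, and both comparisons use the depletion arrays. The part of Tfeb in these differences was not tested. Of the members with the E-box alone, Bnip3 went against Tfeb in both comparisons. It differed by 0.27 after depletion and -0.11 in repletion against depletion, and by 0.12 and -0.01 on 13 arrays. Atg5 gave -0.13 and 0.04 in the same order, and -0.01 and -0.03 on 13 arrays.

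Of the lysosomal membrane proteins, Lamp1 and Lamp2 coat the inner face of the membrane, and Lamp2 also serves in fusion and in direct uptake of proteins. Lamp1 was measured at chr16:81214430-81214489 (rn4). Its levels were 2.61, 2.68, 2.81 and 2.86 in control, from 2.27 to 2.83 with a median of 2.59 after depletion, and 2.74, 2.75, 2.67 and 2.68 after repletion. All 4 repletion arrays lay above the depletion mean of 2.57, within the depletion range. Limma's unadjusted p for Lamp1 in repletion against depletion was 0.212, the fourth smallest among members, and the adjusted p was 0.935.

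Lamp2, on chromosome X at 6931712 to 6938320 (rn4), was set apart by 1 array. Control stood at -1.51, -1.53, -1.87 and -1.84 and repletion at -1.75, -1.78, -1.32 and -1.68. Depletion ran from -1.91 to -0.77 with a median of -1.71, the highest being depletion replicate 1 and the next -1.55. The difference was 0.22 ± 0.21 after depletion, and -0.06 on 13 arrays. In repletion against depletion it was -0.07 ± 0.19, and 0.10 on 13 arrays.

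**Figure D3:**
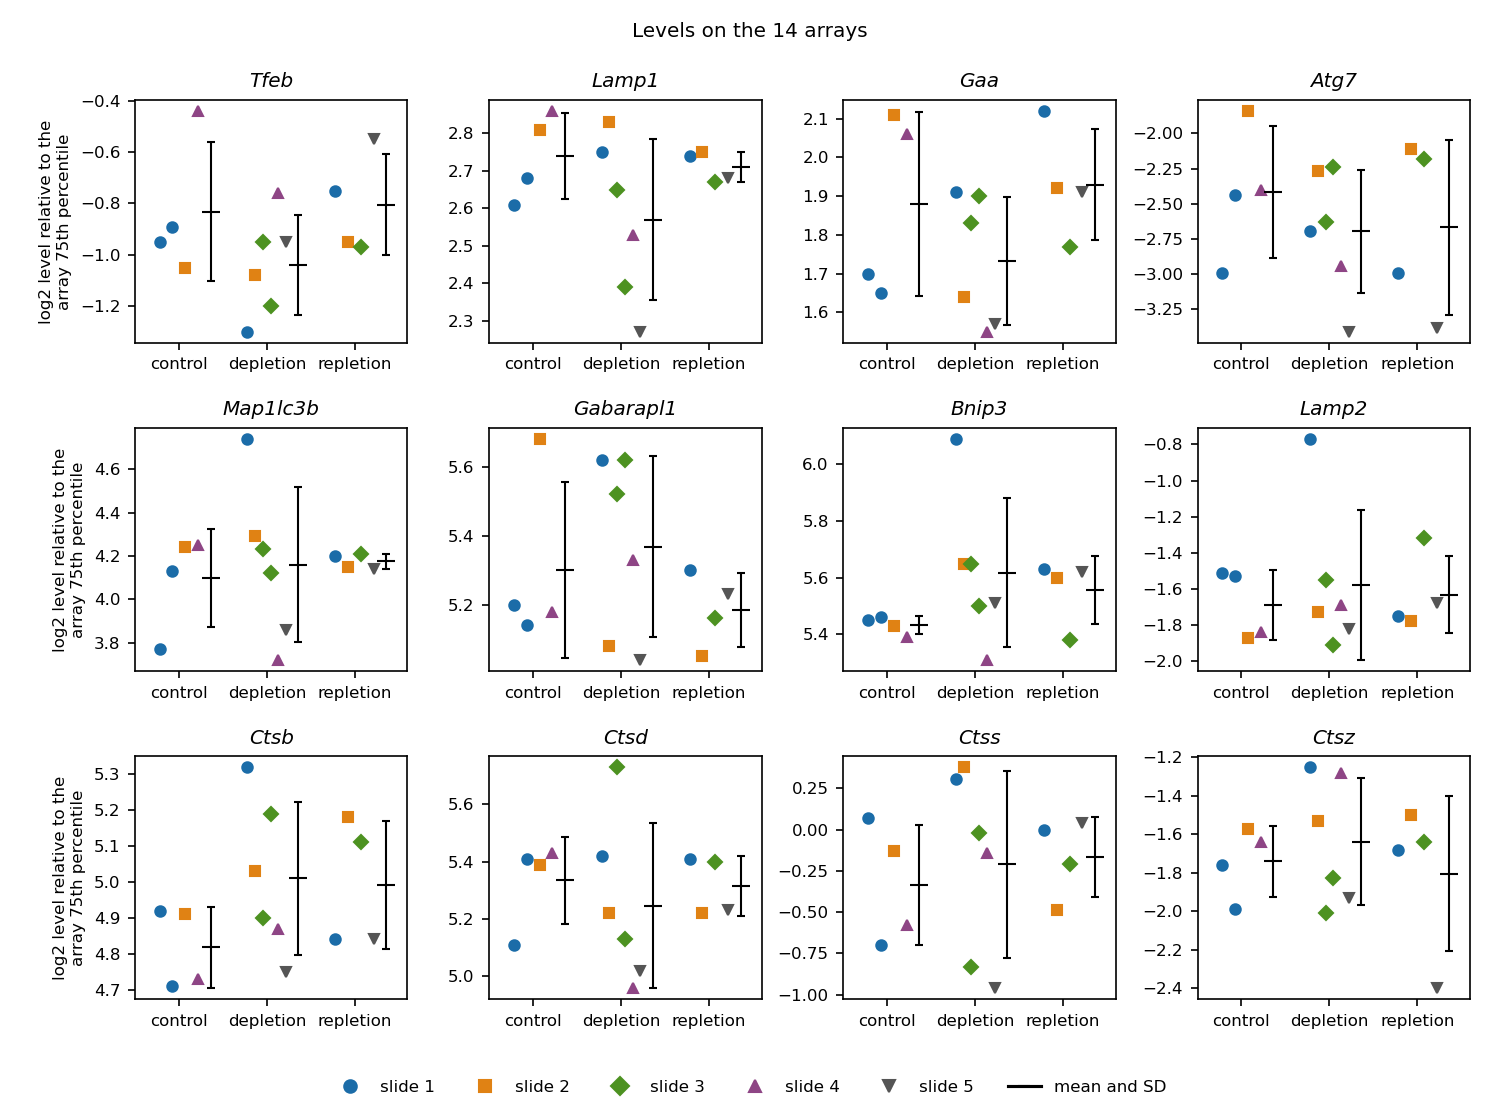
Level of 12 members on the 14 arrays (y axis, log2 relative to the array's 75th percentile; each panel has its own scale) by diet, with slide as colour and symbol and the mean and SD of each group as bars. The groups overlap in all 12 panels, depletion replicate 1 (slide 1) is the top point for Lamp2, Bnip3, Map1lc3b, Ctsb and Ctsz, and Atg7 sorts by slide.

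Cathepsins, the proteases of the lysosome, were 8 members found by name. After depletion 4 were higher and 4 lower, with a median of -0.02, and on 13 arrays 5 were higher and 3 lower, with a median of 0.06. In repletion against depletion 6 were higher and 2 lower, with a median of 0.08, and in repletion against control 7 were higher, with a median of 0.13. Summed over the 8, the signal ran from 81.7 to 87.3 times the array's 75th percentile in control, from 70.6 to 97.4 after depletion and from 80.3 to 91.9 after repletion. This sum mostly follows the brightest probes, those of Ctsd and Ctsb. Ctss and Ctsz together added 0.868 to 1.35 to it in control. No cathepsin passed the test in any comparison.

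Ctsb, a cysteine protease present in most cells, was measured at chr15:42423613-42423672 (rn4). Control arrays gave 4.92, 4.71, 4.91 and 4.73, depletion ran from 4.75 to 5.32 with a median of 4.96, and repletion gave 4.84, 5.18, 5.11 and 4.84. Of the depletion arrays 5 of 6, and of the repletion arrays 4 of 4, lay above the control mean of 4.82. Depletion differed from control by 0.22 ± 0.13, and by 0.50, 0.12 and 0.15 within slides 1, 2 and 4. It differed by 0.08 on 13 arrays. Repletion differed from control by 0.20 ± 0.15 (limma, unadjusted p = 0.200, adjusted p = 1.0).

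Ctsd, an aspartic protease with extended E-boxes before its start, was measured at chr1:202619669-202619727 (rn4). It gave 5.11, 5.41, 5.39 and 5.43 in control, from 4.96 to 5.73 with a median of 5.17 after depletion, and 5.41, 5.22, 5.40 and 5.23 after repletion. Depletion held both the highest and the lowest array. The difference was -0.12 ± 0.16 after depletion and 0.08 ± 0.15 in repletion against depletion, and -0.21 and 0.13 on 13 arrays.

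Ctsl, under the name Ctsl1 in the files, is a cysteine protease known for its induction in wasting muscle. Control levels were 4.51, 4.69, 4.91 and 4.01 and repletion levels 4.48, 4.62, 4.51 and 4.68. Depletion arrays 1 to 6 were at 5.96, 4.31, 5.11, 4.73, 4.04 and 3.82. The spread after depletion (SD 0.79, n = 6) was wider than in control (SD 0.38, n = 4) or repletion (SD 0.09, n = 4), with depletion replicate 1 highest and replicate 6 lowest of all 14. Limma gave 0.23 ± 0.35 for depletion against control (adjusted p = 0.909) and -0.18 ± 0.32 for repletion against depletion (adjusted p = 0.960). On 13 arrays both turned sign, to -0.27 and 0.14.

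Ctss is a cysteine protease of antigen-presenting cells, measured at chr2:190466474-190466533 (rn4). Control gave 0.07, -0.70, -0.13 and -0.58, depletion ran from -0.96 to 0.38 with a median of -0.08, and repletion gave 0.00, -0.49, -0.21 and 0.04. The groups overlapped, and depletion held the highest and the lowest array. Depletion differed from control by 0.33 ± 0.31, the widest interval of any member (-0.37 to 1.04), and by 0.62, 0.51 and 0.44 within slides 1, 2 and 4. On 13 arrays it was 0.21. Repletion differed from control by 0.34 ± 0.34.

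Ctsz, an exopeptidase found in phagocytes among other cells, had the highest difference after depletion and the smallest p of that comparison. Its probe carries no position in the files. Control gave -1.76, -1.99, -1.57 and -1.64, depletion ran from -2.01 to -1.25 with a median of -1.68, and repletion gave -1.68, -1.50, -1.64 and -2.40. The plain group means, -1.64 after depletion and -1.74 in control, lay closer together than the fitted difference of 0.34 ± 0.16 (limma, unadjusted p = 0.0561, adjusted p = 0.836), since slides differed. Within slides 1, 2 and 4 depletion differed by 0.63, 0.05 and 0.37. Without slide in the model the difference was 0.11, and on 13 arrays it was 0.22.

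Ctsa, a serine carboxypeptidase that also protects other lysosomal enzymes, was measured at chr3:155871808-155871867 (rn4). It gave 3.41, 3.36, 3.42 and 3.33 in control, from 2.82 to 3.58 with a median of 3.21 after depletion, and 3.31, 3.58, 3.34 and 3.15 after repletion. Repletion differed from depletion by 0.14 ± 0.10 (limma, unadjusted p = 0.174, adjusted p = 0.935). Both groups held an array at 3.58, and both of these were on slide 2. Ctsc, which activates granule proteases, differed by -0.15 ± 0.15 after depletion, Ctsh by -0.08 ± 0.21 and Ctsk, the collagen-cutting cathepsin of osteoclasts, by 0.04 ± 0.25. These were -0.04, 0.04 and 0.16 on 13 arrays.

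Macrophage markers were set beside the cathepsins. Of these 4 were higher after depletion, Ctss and Ctsz among them, and 4 lower, Ctsc and Ctsh among them. Ctsz in repletion against control differed by 0.22 ± 0.17, and by -0.07 without slide in the model. Of 14 markers, 13 were higher after depletion, with a median of 0.52, and 12 after repletion, with a median of 0.51, both against control, and 0 passed the test. Their summed signal ran from 18.4 to 34.6 times the 75th percentile in control, from 18.5 to 58.7 after depletion and from 33.7 to 38.3 after repletion. The markers were well above background on all 14 arrays for 13 of 14 genes, and on 13 arrays for the other one. Depletion replicate 1 had the highest sum, and without it the median after depletion was 0.22. Their part in the cathepsin differences was not tested. In such whole-muscle RNA, a change in the number of cells of a type and a change in RNA per cell cannot be told apart.

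Of the glycosidases, Gaa breaks down glycogen in the lysosome and Hexa cuts sugars from glycolipids. Gaa was measured by a probe that rn4 places on unassembled sequence (chrUn:52114487-52114546). It gave 1.70, 1.65, 2.11 and 2.06 in control, from 1.55 to 1.91 with a median of 1.74 after depletion, and 2.12, 1.92, 1.77 and 1.91 after repletion. All 4 repletion arrays lay above the depletion mean of 1.73, with overlap. Repletion differed from depletion by 0.21 ± 0.15 (limma, unadjusted p = 0.184, adjusted p = 0.935) and depletion from control by -0.14 ± 0.16, which was -0.25 on 13 arrays. Hexa differed by -0.14 ± 0.14 after depletion and by 0.12 ± 0.13 in repletion against depletion, and by -0.05 and 0.07 on 13 arrays.

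Within slides, where arrays share a scan, the members kept 1 sign on all 3 slides that held depletion and control for 7 of 33 genes (21.2%), beside 27.3% of all probes. These were Uvrag, Lamp2, Ctsb, Ctss and Ctsz, which were higher after depletion, and Ulk2 and Tfeb, which were lower. For repletion against depletion the sign held on all 4 slides for 6 members (18.2%), beside 9.53% of all probes. Ulk2, Atg16l1, Tfeb, Ctsa and Ctsh were higher there and Bnip3l lower. For repletion against control, on 2 slides, it held for 12 members (36.4%), beside 48.9% of all probes. Several of these within-slide differences were near 0, as for Ctsa on slides 1 and 2 (0.00 and 0.00).

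Depletion replicate 1 was the highest of the 14 arrays for 11 of 33 members (33.3%), beside 15.0% of all probes with a value on every array, and the lowest for 6 (18.2%), beside 18.8%. It was highest for Uvrag, Wipi1, Atg3, Atg12, Map1lc3a, Map1lc3b, Gabarapl2, Bnip3, Lamp2, Ctsb and Ctsz, and lowest for Atg4b, Atg5, Atg16l1, Tfeb, Ctsc and Hexa. Depletion replicate 6 was the lowest for 9 members (27.3%), beside 7.64% of all probes, and 4 of its 33 members lay above their gene's mean. Averaged over the 33 members, the deviation from the gene means was 0.13 on depletion replicate 1 and -0.18 on depletion replicate 6. The other 12 arrays lay between -0.04 and 0.06.

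On depletion replicate 1 the red blood cell markers summed to 86.8 times the 75th percentile, where control ran from 17.5 to 37.2 and repletion from 22.5 to 44.3. The fibroblast markers were at their lowest there (23.1, against 31.3 to 58.0 in control), and so were the muscle fibre markers (1580, against 1630 to 2150). After depletion the red blood cell markers (4 of 4 higher) had a median difference of 0.87, and 0.32 without this array, and the fibroblast markers -0.25, and 0.12 without it. Adipocyte markers had a median of 0.08 after depletion, and -0.15 without it. The part of these cells in the members' values was not tested. On 13 arrays 0 members were at an unadjusted p under 0.05 in repletion against depletion, beside 2.85% of all probes.

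**Figure D4:**
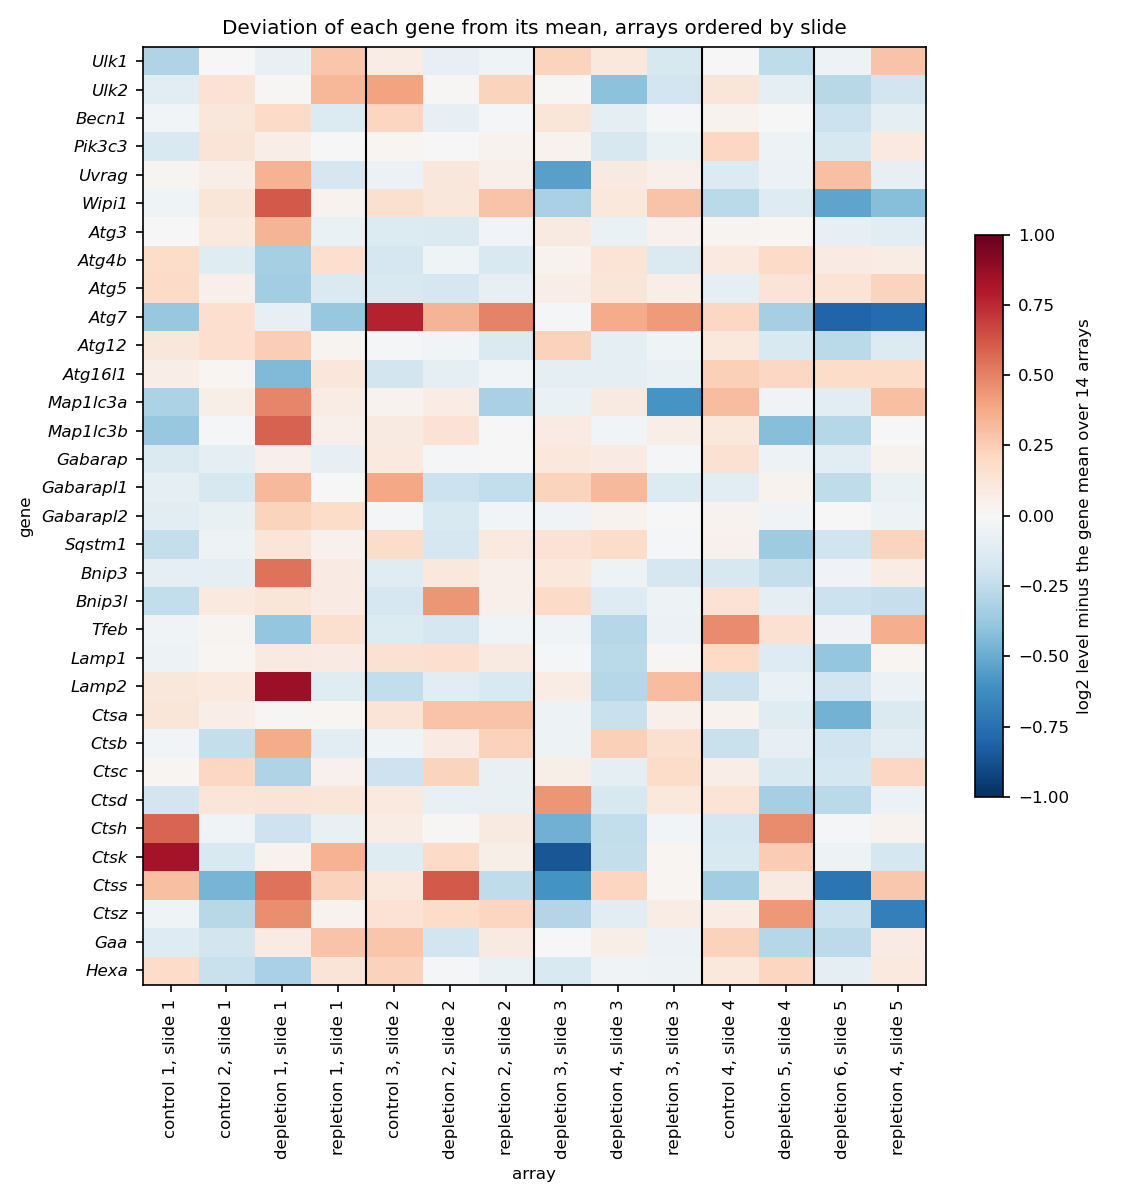
Deviation of each of the 33 members (rows, by role) from its own mean over 14 arrays (columns, ordered by slide; black lines part the slides), in log2 units. The column of depletion replicate 1 is red for Lamp2 (0.85), Wipi1 (0.61), Map1lc3b (0.59) and Bnip3 (0.54). Single dark red cells stand at Ctsk on control replicate 1 (0.83) and Atg7 on control replicate 3 (0.77). The column of depletion replicate 6 is mostly blue. Atg7 is red on slide 2, red on slide 3 except on depletion replicate 3, and blue on slide 5.

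**Figure D5:**
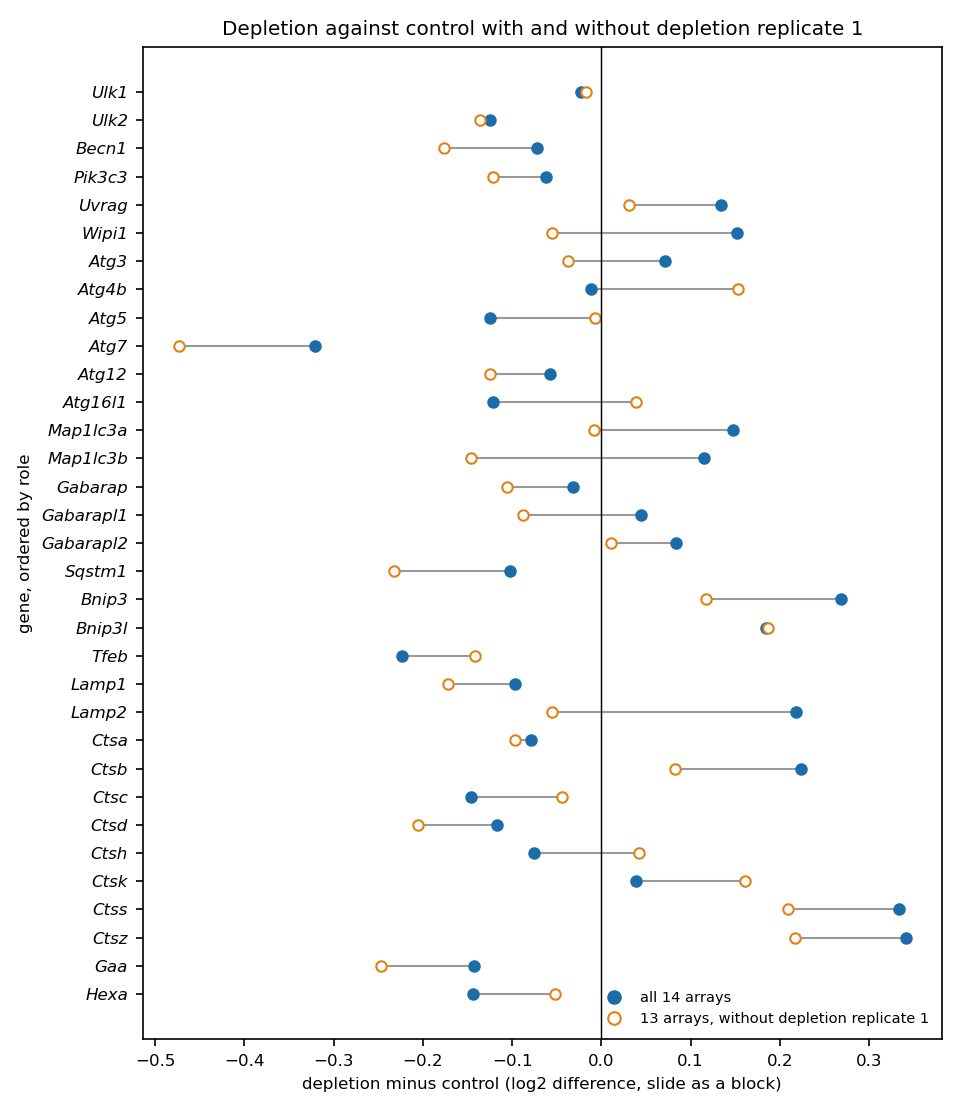
Difference of depletion from control (x axis, log2, slide as a block) for each member with all 14 arrays (filled) and without depletion replicate 1 (open). Map1lc3b moves from 0.11 to -0.15, Lamp2 from 0.22 to -0.06, Bnip3 from 0.27 to 0.12 and Atg7 from -0.32 to -0.47.

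The wider pathway gave the same picture of small differences. Of 104 further autophagy and lysosome genes 95 were tested, and 0 passed in any comparison. After depletion 46 were higher and 49 lower, with a median of -0.005, and on 13 arrays 37 and 58, with a median of -0.04. For repletion against depletion 52 were higher and 43 lower, with a median of 0.02, and on 13 arrays 63 and 32, with a median of 0.04. Of the same genes 52 were higher in repletion against control, with a median of 0.01. The proton pump that acidifies the lysosome had 5 of 15 subunits higher and 10 lower after depletion, beside 45.7% of all probes higher. Its median was -0.06, and -0.10 on 13 arrays. In repletion against depletion 8 subunits were higher and 7 lower, with a median of 0.01. On 13 arrays 11 were higher and 4 lower there, with a median of 0.04. MTORC1 is the kinase that holds Tfeb out of the nucleus when nutrients are plentiful. Among 16 genes that control MTORC1 or Tfeb, 11 were higher in repletion against depletion, with a median of 0.06, beside 58.5% of all probes. On 13 arrays 10 of the 16 were higher.

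By smallest p, the further genes lower after depletion were the proton pump subunit Atp6v0b (-0.29 ± 0.12), Rragd (-0.45 ± 0.21), a small GTPase that brings MTORC1 and Tfeb to the lysosome, and Zkscan3 (-0.23 ± 0.11), a repressor of autophagy genes. Those higher were Fuca1, a fucosidase (0.30 ± 0.17), Optn, a cargo receptor (0.42 ± 0.23), and Igf2r, which sorts enzymes to lysosomes (0.32 ± 0.20). Limma's adjusted p was 0.836 for all 6. On 13 arrays Rragd was at -0.19, Zkscan3 at -0.13, Fuca1 at 0.19 and Optn at 0.06.

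By the same rule, repletion against depletion named Rragd (0.55 ± 0.20), the peptidase Tpp1 (0.27 ± 0.10) and the lipid reader Wipi2 (0.32 ± 0.12) as higher. The cathepsin inhibitor Cst3 (-0.26 ± 0.13), Pik3r4, a subunit of the Pik3c3 complex (-0.27 ± 0.15), and the lipid hydrolase Galc (-0.21 ± 0.14) were lower. Limma's adjusted p was 0.935 for each. The mean level of Rragd was 0.65 after depletion and 1.17 after repletion, and on 13 arrays Rragd differed by 0.34 and Pik3r4 by -0.15 between repletion and depletion. In repletion against control the genes named by the same rule were Atg9a (0.17), Optn (0.29, and 0.16 on 13 arrays) and Man2b1 (0.11), which were higher, and Atg4c (-0.28), Npc2 (-0.21) and Rraga (-0.14), which were lower, each at an adjusted p of 1.0 in limma.

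The proteasome, the other main route of protein breakdown in muscle, was measured by 34 of 34 genes. After depletion 25 were higher and 9 lower, with a median of 0.04, and on 13 arrays 8 were higher and 26 lower, with a median of -0.09. For repletion against depletion 17 were higher and 17 lower, with a median of 0.00, and on 13 arrays 29 and 5, with a median of 0.09. None passed in either fit.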

How the data were processed

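Per the file headers, Agilent Feature Extraction 11.5.1.1 made the intensity of each spot, subtracting background within an array without scaling between arrays. Normalized log2 values by the authors are in the deposited series table (limma is named in the submitters' processing notes, without a version), which served as an alternative. Control and outlier-marked spots (0.669% to 1.05% per array) were left out, spots of a probe averaged, and each array's 75th percentile (1785 to 2389) subtracted on the log2 scale. Of 30367 probes 26387 were kept, those detected well above background on 4 or more of the 14 arrays and holding 2 or more values in every group. All were fitted with limma 3.58.1 in R 4.3.3, with diet and slide as terms, moderated tests and Benjamini-Hochberg adjustment over all probes, threshold 0.05. The brightest probe represents a gene. The fit was tested on simulated data with planted changes larger than any member difference, so that test does not bear on changes as small as those here. The members and gene lists were chosen with earlier results of these data known. Named genes are all members, with array values for 13 of set roles and the 4 smallest p-values per comparison, and 3 further pathway genes per direction. Levels of Ctsl come from the alternative that updates names by accession, and its difference without depletion replicate 1 was added after seeing the data. Coordinates are of rn4 for probes and GRCr8 for promoters. The alternatives were no slide block, slide as a random block, replicate block, median centring, quantile normalization, normexp (offset 50), the authors' values, other filters, outlier-marked spots kept, probe means, fits of 2 groups, array weights, depletion replicate 1 counted as repletion, updated symbols and each array left out.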

Additional observations from a re-analysis of the deposited data

Results flagged for a closer look

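In 6 of the 99 sets formed by 1 member and 1 diet group, 1 array stood apart by the gap to its nearest neighbour relative to the range of the group (Dixon's ratio), where chance alone gives about 1 set in 20. Depletion replicate 1 was the highest for Map1lc3a (5.19, next 4.79, ratio 0.691) and Lamp2 (-0.77, next -1.55, ratio 0.685). Control replicate 3 was the highest for Gabarapl1 (5.68, next 5.20, ratio 0.897), and control replicate 1 the highest for Ctsk (-0.59, next -1.54, ratio 0.970) and the lowest for Ctsd (5.11, next 5.39, ratio 0.876). Repletion replicate 3 was the lowest for Bnip3 (5.38, next 5.60, ratio 0.881).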

How the results depend on the processing

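No member and no gene of the wider lists was called between diets in any of the 29 alternatives, the lowest adjusted p of a member being 0.584 (limma, Bnip3 in depletion against control without repletion replicate 1). Of 99 member differences 62 turned sign in at least 1 alternative; 2865 of 2871 alternative values lay within 1 SD of the replicates, and 6 moved further. Tfeb in repletion against depletion ran from 0.19 to 0.37 over 29 alternatives, with an unadjusted p under 0.05 in 21. The count of members called between slides was 1, Atg7 (limma adjusted p 0.00333 to 0.0349 in the 25 alternatives that give this test). It was 2 on the authors' values, with Atg5 (limma adjusted p = 0.0207), and 1 to 2 with single arrays left out, being 2 without repletion replicate 3, with Ctsz (limma adjusted p = 0.0374); the cause was not tested. Same-numbered arrays of different groups correlated from -0.499 to 0.722 in their deviations from the group means, with a median r of 0.24 over 12 pairs and -0.245 over the 7 pairs on different slides; not every pair was over 0.1, so the numbers were not taken as a pairing; with a replicate block in place of slide the median of members in repletion against depletion was -0.0395, beside 0.04, and no call changed. Normexp moved the median of all probes to -0.14 after depletion and -0.12 in repletion against control. With 4 to 6 arrays a group, SEs of member differences ran from 0.09 to 0.34. Changes well under 1.5-fold could not be shown, and with adjustment over all probes changes of 1.5-fold or more could be missed too.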
